A study of Mus musculus with 3 samples.

Results

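The carbonic anhydrase genes described here are Car2, Car3, Car4, Car8, Car12 and Car14, which is 6 of 19938 genes measured and 6 of the 16 genes of the family on the array. They were chosen by name from results of these same arrays, with their log2 differences between the 3 media in view, so their differences are given as a description and carry no test. For each gene the probe set annotated to its symbol alone was used, and each of the 6 genes had exactly 1 such probe set.

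Kidney rudiments of C57BL/6 mouse embryos at embryonic day 11.5 were cultured on Transwell filters for 48 h. The medium was DMEM with 10% FBS (fetal bovine serum, called serum below), DMEM without serum (serum-free), or serum-free DMEM with retinoic acid, the active derivative of vitamin A, at a dose that the sources used here do not state. All media share the DMEM base, and no genotype or transgene is named. Each medium was read on 1 Mouse Gene 1.0 ST array from Affymetrix, so that there were 3 arrays and no replicates. The sources used here do not say how many kidneys went into each RNA sample. No difference below therefore has an error, and the number of arrays limits the precision.

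Carbonic anhydrases are zinc enzymes that turn carbon dioxide and water into bicarbonate and a proton. The mammalian family is spread over the cell. Car1, Car2, Car3, Car7 and Car13 encode cytosolic enzymes and Car5a and Car5b mitochondrial ones. Car6 encodes a secreted enzyme, Car4 and Car15 encode enzymes held on the outer cell surface by a lipid anchor, and Car9, Car12 and Car14 encode transmembrane enzymes with an outward-facing catalytic domain. Car8, Car10 and Car11 encode related proteins that have lost catalytic activity. In the mature kidney, cytosolic Car2 and membrane-bound Car4 serve bicarbonate reabsorption in the proximal tubule, and Car2 also serves acid secretion by the intercalated cells of the collecting duct.

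The promoters of the membrane-bound members Car4 and Car14 are shown first. Car4 and Car14 were the members whose level passed the median of all gene-level values, the floor defined below, only in serum. RefSeq promoter windows (GRCm38.p6) were at hand for 3 of the 6 members, Car4, Car12 and Car14. The window runs from 250 bases before the annotated start to 50 bases after it, and the 250 bases before the start are printed, with matches to the searched motifs in capitals. The Car4 stretch lies at chr11:84957504-84957753 on the plus strand and the Car14 stretch at chr3:95904686-95904935 on the minus strand.
Car4: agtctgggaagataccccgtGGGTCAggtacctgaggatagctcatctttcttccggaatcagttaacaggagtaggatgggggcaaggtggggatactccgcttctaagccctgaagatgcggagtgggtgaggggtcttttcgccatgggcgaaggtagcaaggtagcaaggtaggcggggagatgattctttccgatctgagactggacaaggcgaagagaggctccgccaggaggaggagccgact
Car14: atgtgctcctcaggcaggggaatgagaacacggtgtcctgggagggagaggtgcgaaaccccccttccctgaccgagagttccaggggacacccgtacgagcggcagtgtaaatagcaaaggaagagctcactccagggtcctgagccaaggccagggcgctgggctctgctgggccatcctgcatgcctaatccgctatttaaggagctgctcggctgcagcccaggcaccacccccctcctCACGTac

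The motifs were searched on both strands of the whole window. The direct repeats DR1, DR2 and DR5 of the retinoid receptors had 0 matches in Car4, Car12 and Car14, and they are rare, present in 0.222%, 0.268% and 0.0974% of all 32851 promoter windows. A single unit of these repeats (AGGTCA, with G also allowed at its first base and T at the third) was found once in the Car4 window, as GGGTCA at positions -230 to -225 from the start, and is present in 43.7% of all windows. Every direct repeat contains this unit. ACGTG, the core of the hypoxia response element, matched on the minus strand at positions -7 to -3 in Car14 and 3 to 7 in Car4 (19.6% of all windows). TATAAA was found in Car4 after the annotated start, at positions 43 to 48 (13.6% of all windows). The CArG box, which binds the factor SRF, had 0 matches in these 3 windows (1.63% of all windows). These matches describe letters in the windows and do not show binding.

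Of the 6 genes, 2 (Car2 and Car3) lay at or above a floor of 7.12 on the log2 scale on all 3 arrays. The floor is the median of all gene-level values and corresponds to an intensity of 140. Car4 and Car14 lay above it on the serum array only, and Car8 and Car12 lay below it on all arrays. A value under the floor is a weak signal in which background, which was not measured here, may take up much of the intensity. Small differences of Car8 and Car12 and the low values of Car4 and Car14 are therefore treated as imprecise.

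**Figure D1:**
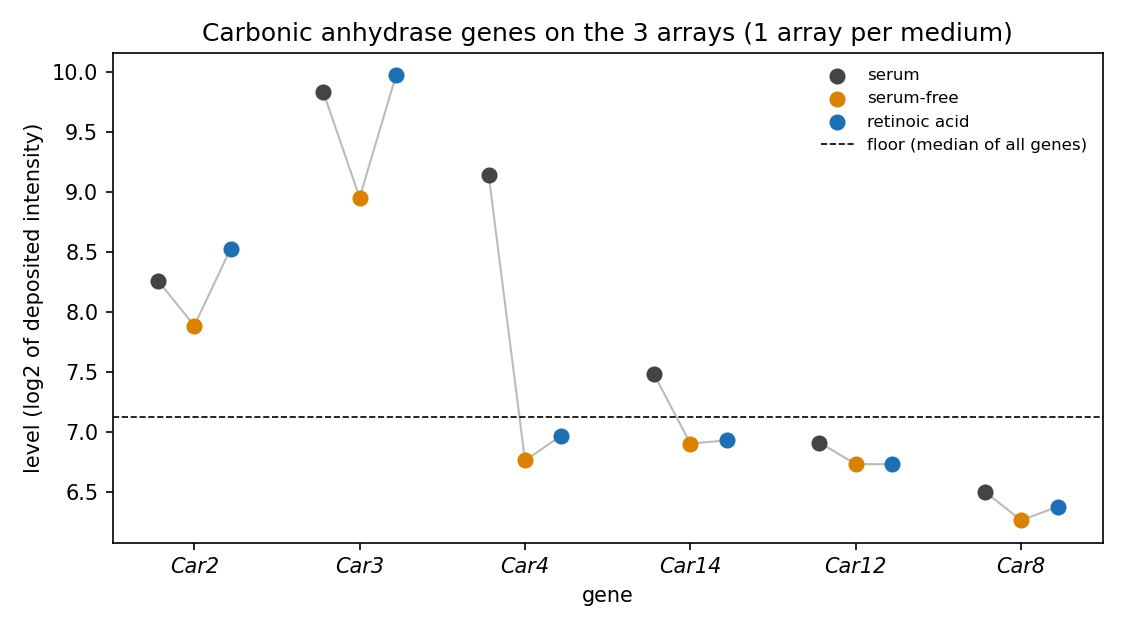
Level of each of the 6 genes (vertical axis, log2 of the deposited intensity) on the serum, serum-free and retinoic acid arrays, 1 array per medium, with the floor of 7.12 as a dashed line. Car4 is at 9.14 in serum against 6.76 and 6.97 in the other media, while Car2 and Car3 are lowest on the serum-free array.

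The largest difference of any member was that of Car4 on leaving serum out. Car4, the surface enzyme with a lipid anchor, had a deposited intensity of 565 in serum, 108 without it and 125 after retinoic acid. Only the serum array was high, and the serum-free and retinoic acid arrays lay close together and under the floor. On the log2 scale the levels were 9.14, 6.76 and 6.97, so that Car4 was 5.21-fold lower in serum-free medium than in serum, a difference of -2.38. It held place 4 from the lowest among 10156 genes at or above the floor on at least 1 of those arrays. The size is uncertain, since the serum-free value is a weak signal. After adding 32 to each intensity, a step that dampens weak signals, the difference was -2.09.

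Car14, a transmembrane enzyme, had the same order of arrays with a smaller difference. Its intensity was 179 in serum, 120 without it and 122 after retinoic acid, and again only the serum array lay above the floor. The log2 levels of Car14 were 7.48, 6.90 and 6.93, and serum-free medium differed from serum by -0.58. Car12, the transmembrane enzyme known as a target of hypoxia signalling in tumours, differed by -0.18 (6.91 in serum and 6.73 without it), with both values under the floor.

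Among the cytosolic members, Car3 encodes an enzyme of low activity that is abundant in adult fat and skeletal muscle. Its intensity was 913 in serum, 496 without it and 1005 after retinoic acid. The serum-free array stood apart as the low one, and the serum and retinoic acid arrays differed by little. On the log2 scale Car3 was at 9.83, 8.95 and 9.97, a difference of -0.88 or 1.84-fold without serum, which is short of the 2-fold used for a call. Car2, the fast and widespread cytosolic enzyme, had intensities of 307, 236 and 369 in the same order of media. Car2 was likewise lowest on the serum-free array, at 7.89 against 8.26 in serum, a difference of -0.38. The catalytically inactive Car8, which is known in the cerebellum as a partner of the inositol trisphosphate receptor, differed by -0.24 (6.50 in serum and 6.26 without it), under the floor in both.

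In all, 1 of the 6 genes (Car4) was at least 2-fold lower without serum, counting genes whose larger value reached the floor, and 0 were at least 2-fold higher. Over all 10156 genes at or above the floor, 0.699% were lower and 0.876% higher by that rule. All 6 differences were below 0, with a median of -0.48. Over the 4 members among the 10156 genes, which leaves out Car8 and Car12, the median was -0.73, while 51.0% of the 10156 genes had differences below 0 and their median was -0.00. These members were picked with such values known, so the count is read as a description only. The array data come from whole explants, in which fewer cells of a type and less RNA per cell cannot be told apart.

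With retinoic acid added to serum-free medium, the cytosolic members were higher and Car4 lay near its serum-free level. Car3 was higher by 1.02 on the log2 scale, or 2.03-fold, just past the 2-fold line. It held place 100 from the highest among 10111 genes. Car2 was higher by 0.64 or 1.56-fold, and its retinoic acid level of 8.53 was the highest of its 3 values. Car4 differed by 0.21, Car8 by 0.11 and Car14 by 0.03. Car12 had exactly the same deposited value on both arrays, as did 35.4% of the genes at or above the floor, and such ties do not measure equal expression.

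Thus 1 of 6 members (Car3) was at least 2-fold higher with retinoic acid, against 1.05% of all 10111 genes, and 0 were at least 2-fold lower, against 0.613%. Only 2 members, Car2 and Car3, were among the 10111 genes. Car4, Car8, Car12 and Car14 were under the floor on both arrays and could not be called. The call for Car3 is marginal: after adding 32 to the intensities the difference was 0.97, and after adding 16 it was 0.9967, both under the line. This comparison shares its serum-free array with the previous one, so that a low serum-free value enters both.

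With retinoic acid and no serum, compared with serum, Car4 was lower by 4.51-fold, at -2.17 on the log2 scale and place 10 from the lowest of 10169 genes. Car14 differed by -0.55, Car12 by -0.18 and Car8 by -0.13. Car2 differed by 0.27 and Car3 by 0.14, so the cytosolic pair had values above those in serum and the other 4 members had values below. By the 2-fold rule 1 member was lower (0.816% of all genes) and 0 were higher (1.04%). Only 4 members were among the 10169 genes, so Car8 and Car12 could not be called.

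**Figure D2:**
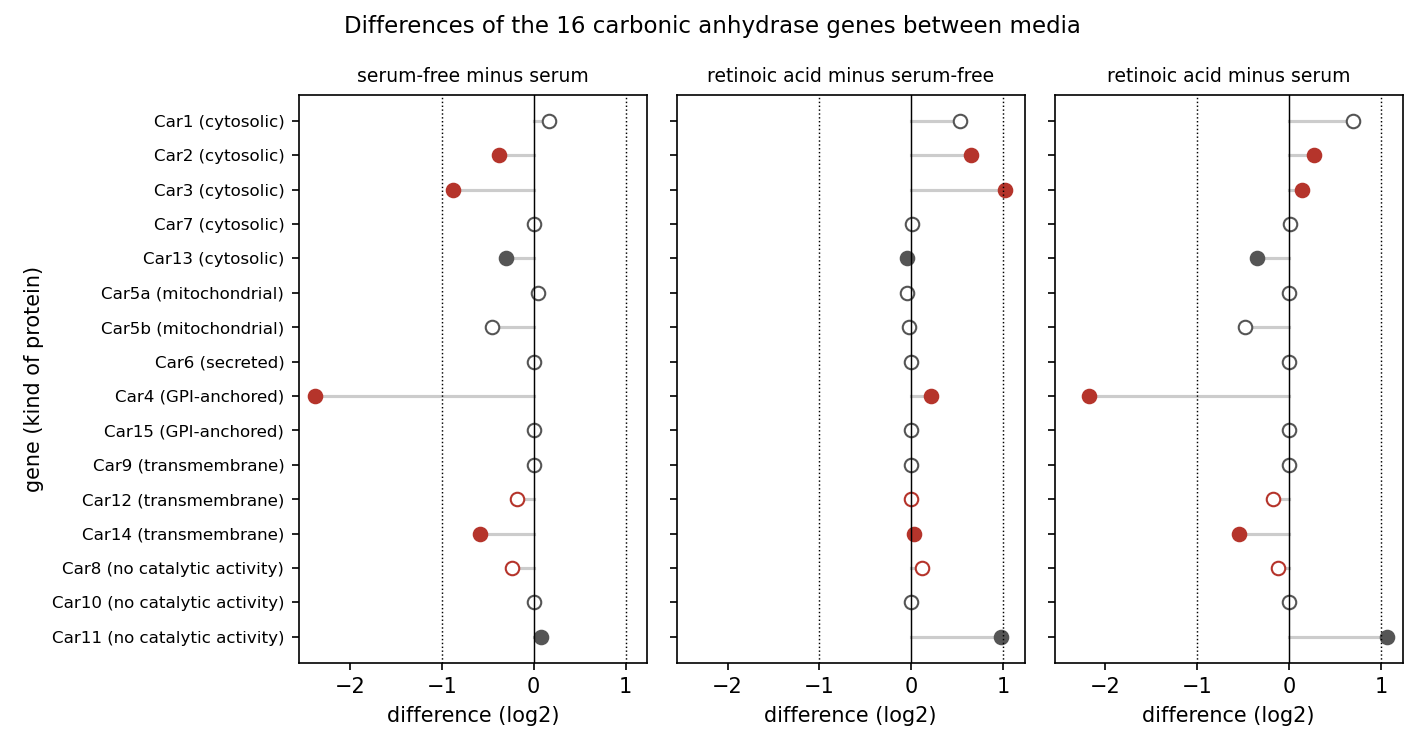
Difference on the log2 scale (horizontal axes) between pairs of media for the 16 carbonic anhydrase genes, ordered by kind of protein. Red marks the 6 genes described here and grey the other 10, open circles mark genes under the floor on all arrays, and dotted lines stand at 2-fold; Car4 at -2.38 and -2.17 and Car11 at 1.06 reach past them, as does Car3 at 1.02.

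The other 10 genes of the family were all measured. Of these, 8 lay under the floor on all arrays, and 4 of the 10 (Car6, Car9, Car10 and Car15) had 1 identical value on every array, at 4.44, 5.10, 5.14 and 6.31. Car11, which encodes a secreted and catalytically inactive relative of Car8, had log2 levels of 8.65 in serum, 8.73 without it and 9.71 after retinoic acid. Only the retinoic acid array was high. Car11 was higher with retinoic acid by 0.98 against serum-free medium, just short of 2-fold, and by 1.06 against serum, where it was the family's gene past 2-fold in the upward direction. Unlike Car2 and Car3, its serum-free value was close to its serum value (0.08).

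Car13, a cytosolic enzyme, was at 8.38, 8.08 and 8.03, or -0.30 without serum and -0.05 on adding retinoic acid. Car5b, one of the mitochondrial enzymes that feed bicarbonate to carboxylases, was under the floor at 6.86, 6.41 and 6.38. The remaining genes under the floor were Car1, the red cell enzyme, at 5.01, 5.18 and 5.70, Car5a at 5.16, 5.20 and 5.16, and Car7 at 5.91, 5.91 and 5.92. In RefSeq order Car13, Car1, Car3 and Car2 are consecutive protein-coding genes on chromosome 3. On adding retinoic acid these 4 genes had differences of -0.05, 0.52, 1.02 and 0.64, with Car1 under the floor, and without serum -0.30, 0.17, -0.88 and -0.38.

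Genes whose pattern over the 3 arrays came nearest to a member were sought for the 2 members that spanned 2-fold or more, as did 3.34% of all genes at or above the floor. Likeness was the Euclidean distance between the log2 values centred on each gene's mean, over 9999 genes. For Car4 the nearest were Igfbp7, which encodes a secreted binding protein of the insulin-like growth factor family, at a distance of 0.22, and Slc7a3, a transporter gene for cationic amino acids, at 0.25. Igfbp7 was at 11.59 in serum, 9.52 without it and 9.55 with retinoic acid. Next came Svopl at 0.46, the organic anion transporter gene Slco4c1 at 0.56 and Map3k7cl at 0.57.

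The nearest patterns to Car3 had smaller distances, over a span of 1.02 between its arrays against 2.38 for Car4. Lbh, a transcription cofactor gene, lay at a distance of 0.03, with 10.31 in serum, 9.45 without it and 10.50 after retinoic acid. Pakap followed at 0.09, Gfra1, which encodes the co-receptor through which GDNF acts on the ureteric bud, at 0.11, and the Notch ligand gene Dll1 at 0.11. The fifth was Eif2s3y at 0.12, a gene of the Y chromosome, with 8.38, 7.46 and 8.64. With 3 points per gene, such likeness is a description of these arrays.

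**Figure D3:**
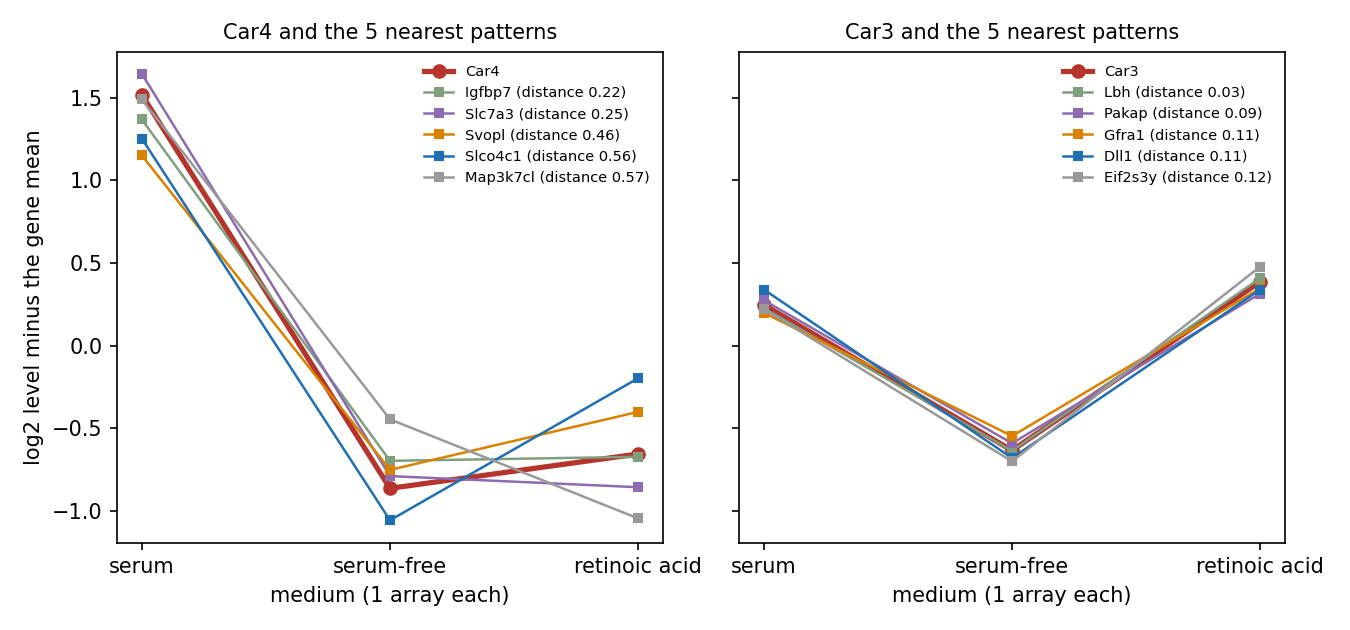
Log2 level minus the gene's mean (vertical axis) on the 3 arrays for Car4 (left) and Car3 (right), each in red, with the 5 nearest genes at or above the floor and their distances. The Car4 group is high in serum alone, and the Car3 group is low on the serum-free array alone.

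Genes that work beside the carbonic anhydrases in acid-base handling were counted by the same rule. Of 16 measured bicarbonate transporter genes, 6 were at or above the floor, and without serum 0 were at least 2-fold higher or lower. Slc26a7, a chloride and bicarbonate exchanger gene, was at 8.67 in serum, 9.56 without serum and 9.84 with retinoic acid, and was the 1 gene of the list past 2-fold in any comparison (1.18 for retinoic acid against serum). Its order of media is unlike that of Car2, Car3 and Car4, since it was lowest in serum. Slc4a4, the sodium bicarbonate cotransporter gene of the proximal tubule, was at 7.23, 7.05 and 7.65, lowest on the serum-free array as Car2 and Car3 were. Slc26a11 and Slc4a1 differed by 0.22 and 0.14 without serum.

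Of 15 proton and lactate carrier genes, 1 was at least 2-fold higher without serum, namely Slc9a9, an endosomal sodium and proton exchanger gene (1.15, from 6.53 to 7.68), and 0 were lower. Slc9a3r1, which encodes a scaffold of that exchanger family, differed by -0.39 on adding retinoic acid, and the lactate carrier genes Slc16a1 and Slc16a3 by -0.13 each without serum. The V-ATPase, the proton pump of lysosomes and of acid-secreting cells, had 23 measured subunit genes. Without serum 17 of the 23 differed by more than 0 and 0 by less than 0, with a median of 0.08 and 0 past 2-fold. Over the 10156 genes at or above the floor, a set that leaves out 6 of the 23 subunits, 19.5% differed by more than 0 and 29.5% by exactly 0. The median over the other 17 subunits was 0.09. Among the subunits at or above the floor the largest were Atp6v1b2 at 0.42, Atp6v0e2 at 0.27, Atp6v0d1 at 0.26 and Atp6v0a1 at 0.24. Atp6v0d2, a subunit gene known from osteoclasts and macrophages, was under the floor and differed by 0.90 (5.22 in serum, 6.12 without it and 5.22 after retinoic acid). On adding retinoic acid 14 of the 23 subunit genes differed by less than 0 and 0 by more than 0. Over the 10111 genes at or above the floor 35.1% differed by less than 0. Both comparisons share the serum-free array, and the subunit median for retinoic acid against serum was 0.00.

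Of 9 genes for enzymes that use bicarbonate, 0 were past 2-fold in any comparison. Acaca, the acetyl-CoA carboxylase gene of fatty acid synthesis, was at 9.41 in serum, 9.09 without it and 9.42 after retinoic acid, and Mccc1, Mccc2 and Cad differed by -0.24, -0.12 and 0.00 without serum. The inositol trisphosphate receptor genes Itpr2 and Itpr3, which encode relatives of the Car8 partner, differed by 0.14 and 0.13. Among 20 hypoxia target genes 0 were past 2-fold in any comparison, and the median difference was 0.00 without serum and 0.00 on adding retinoic acid. For retinoic acid against serum the median was -0.09, with 12 of the 20 below 0 and 3 above. Over the 16 at or above the floor that median was -0.11, against -0.01 over all 10169 genes. Without serum Egln3 differed by 0.54, P4ha1 by -0.37, Vegfa by -0.25 and Ldha by -0.16. Car9, the family's best known hypoxia target, had the same value (5.10, under the floor) on all arrays.

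**Figure D4:**
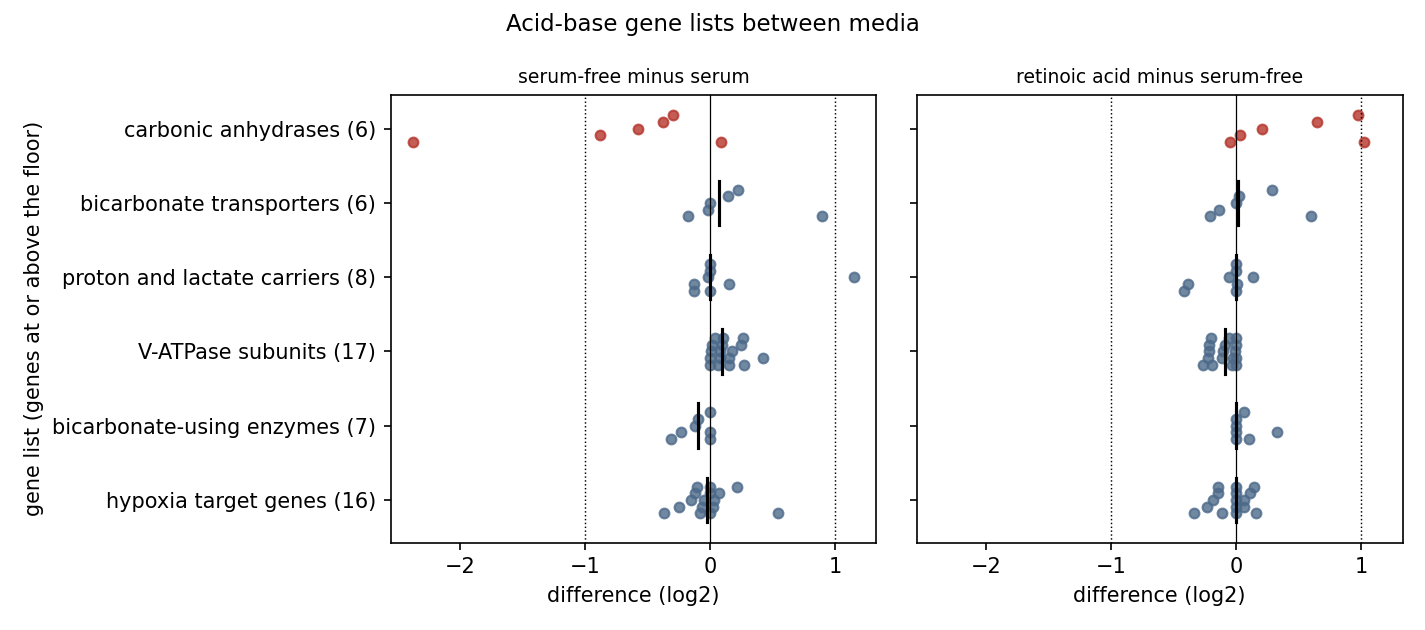
Log2 difference of each gene at or above the floor (points) in the acid-base lists, without serum (left) and on adding retinoic acid (right), with the number of genes in brackets, black bars at list medians and dotted lines at 2-fold. The carbonic anhydrase row (the 4 members at or above the floor, Car11 and Car13) has no median, since most of its genes were picked with these values known; the V-ATPase points all lie at or above 0 on the left.

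Markers of kidney cell types were read on the same arrays. Of 9 nephron progenitor markers 9 were at or above the floor, with Six2 between 10.39 and 11.25, as were 9 of 9 early nephron markers and 8 of 8 measured ureteric tip markers. Markers of the mature cells in which Car2 and Car4 are best known were nearly all weak. Only 1 of 10 proximal tubule markers (Aqp1, which endothelium and red cells also express) and 1 of 11 intercalated cell markers (Slc4a1, also a red cell gene) reached the floor, and Foxi1, the defining factor of intercalated cells, stood at 5.41 on all arrays. Of 10 skeletal muscle markers, a site of Car3 in the adult, 0 reached the floor. Of 9 measured adipocyte markers 2 did, Pparg and Lpl, while Adipoq stood at 4.06 on all arrays.

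Markers of several cell types differed between media along with the members. The contractile smooth muscle markers were high in serum, as Car4 was, but the list was mixed. Its summed intensity over 11 genes was 12726.1 in serum, 6055.0 without it and 5295.2 after retinoic acid, and 5 of 11 were at least 2-fold lower without serum, among them Acta2 at -1.31 and Myl9 at -1.21. Without Acta2 the sums were 7257.7, 3844.5 and 4452.3. These sums include the ureter mesenchyme genes Tbx18 and Tshz3, higher by 1.22 and 0.95 on adding retinoic acid. In that comparison 2 of 11 (Acta2 and Tagln) were at least 2-fold lower and 1, Tbx18, at least 2-fold higher. Tagln differed by -1.32. Actg2 and Cnn1 differed by -1.40 and -1.02 but were not called, since both values of each were under the floor. Acta2 differed by -1.39 and Myl9 by -0.65 there, while Car4 differed by 0.21. Des and Smtn differed by 0.05 and -0.21 without serum, and the ureter mesenchyme genes Tbx18 and Tshz3 were highest with retinoic acid, at 9.97 and 10.45. Early nephron markers were lowest on the serum-free array, as Car3 was, with summed intensities of 4779.6, 2427.9 and 3655.0. Of 9, 6 were at least 2-fold lower without serum and 4 at least 2-fold higher on adding retinoic acid, with Pax8 at -1.17 and 0.70, and Jag1 at -0.65 and -0.10.

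Ureteric tip markers summed to 6480.5, 4051.5 and 6798.3, again lowest on the serum-free array as Car2 and Car3 were, with 2 of 8 at least 2-fold lower without serum and 2 of 8 at least 2-fold higher on adding retinoic acid. Gfra1 and Etv5, the strongest of them, differed by -0.75 and -0.40 without serum, and by 0.89 and -0.03 on adding retinoic acid. Ureteric trunk markers summed to 8966.3, 6055.9 and 8326.3, with Calb1 at -1.94 and 2.18 in those comparisons. Without Calb1 the other 12 genes summed to 5709.3, 5207.6 and 4482.2, lowest with retinoic acid, and Gata3 differed by -0.13 and -0.48. Nephron progenitor markers summed to 10695.7, 12644.1 and 8417.8. On adding retinoic acid 2 of these 9 were at least 2-fold lower, Cited1 at -2.13 and Meox2 at -1.52, and Meox1 was higher by 1.81. Macrophage markers ran the other way, at 3512.1, 10017.0 and 7171.2, with 11 of 14 at least 2-fold higher without serum. Endothelial markers summed to 8037.1, 11296.8 and 9583.9, with 0 of 12 past 2-fold, and Cdh5 differed by 0.81. Erythroid markers, 3 of 8 at or above the floor, summed to 2313.3, 2914.4 and 2398.2, and Hba-x differed by 0.42. The part of these cell types in the differences of Car2, Car3, Car4 and Car14 was not tested.

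The labelled treatment was checked on known target genes. Of 5 retinoid response genes 4 were at least 2-fold higher on adding retinoic acid, with Rarb at 2.95, Dhrs3 at 3.32, Cyp26b1 at 3.65 and Stra6 at 1.56, while Cyp26a1 was under the floor. The embryos' sex is not given in the labels. Xist was lower by 1.70 and the Y-linked genes Eif2s3y, Kdm5d and Uty were higher by 1.10 to 1.19 with retinoic acid than in serum-free medium. The order of media of Car2 and Car3, lowest without serum and highest with retinoic acid, is that of these Y-linked genes. It is also that of all 5 retinoid response genes. Without serum Rarb differed by -1.98, Dhrs3 by -2.10, Stra6 by -0.80 and Cyp26b1 by -0.03. For Car2 and Car3 an effect of medium and unequal shares of male and female embryos cannot be told apart.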

How the data were processed

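The labels' protocols state that 250 ng of total RNA per medium was labelled with biotin and hybridised. The authors deposited 1 intensity per probe set and array, not on a log scale (range 3.84 to 17250.02). The submitters' processing notes name Affymetrix Expression Console 1.1 and RMA, without the settings. RMA evens out the arrays and summarises probes by a method that often returns equal values for a pair of arrays, so small differences can come out as 0.

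Values were taken to log2 with no pseudocount and no further scaling (Python 3.11.15, numpy 2.4.6, pandas 2.3.3). Of 35556 probe sets, 21789 had exactly 1 symbol in the platform annotation, and a gene's probe set with the highest mean was kept. A gene was called at 2-fold or more when its larger value reached the floor. No test was possible without replicates, and p-values were not computed. The code of the calling and pattern steps was run on simulated data with planted changes and a planted pattern. In the calling check the changes exceeded the 2-fold line and no noise was added. It therefore does not measure how reliable a call is. RefSeq tables (GRCm38.p6) gave gene order and promoters; the array values have no build.

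The members, lists and rules were chosen with earlier results of these data known. Named genes were all members and family genes, up to 4 of each acid-base list with the largest differences, the 5 nearest patterns and the 2 strongest genes of marker lists, of which those bearing on the members are printed; Foxi1, Adipoq and some others were named after their values were seen, as was the search for single retinoid receptor units. Summed marker levels add intensities of different probe sets and are compared between arrays only; the sums without Acta2 and without Calb1 were added after seeing the data.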

Additional observations from a re-analysis of the deposited data

How the results depend on the processing

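The alternatives were 32 or 16 added to the intensities, median centring, cyclic loess and quantile scaling (limma 3.58.1), no floor or a floor at the 25th percentile, a 1.5-fold line, and other choices of probe set. The last changed no member, since each has 1 probe set. The number of members at least 2-fold higher on adding retinoic acid was 1 and became 0 with 32 added and 0 with 16 added, as Car3 fell short. At 1.5-fold it was 2 (Car2 and Car3; 2.41% of all genes were higher by that rule), and the number lower without serum was 2 (Car3 and Car4; 2.07% of all genes) in place of 1. The other 56 of 60 recomputed counts were unchanged or within 1.5 times, including those of the probe set choices, which could not move. No called difference changed sign, but only median centring, cyclic loess and quantile scaling could have changed one. Over all alternatives Car4 without serum differed by -2.09 (32 added) to -2.45 (median centring). No paired analysis was possible because each medium had 1 array, and no replicate could be left out. Weak signal under the floor limits Car8, Car12 and the low values of Car4 and Car14.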

Other observations

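The protein-coding genes next to the members in RefSeq order, up to 4 for each member, were read on the same arrays. The 4 genes around Car4 (Myo19, Znhit3, Usp32 and 1700125H20Rik) differed by -0.05 to 0.00 without serum, where Car4 differed by -2.38. On adding retinoic acid they differed by -0.09 to 0.01. The 3 measured neighbours of Car14, among them the gamma-secretase subunit gene Aph1a, differed by -0.14 to 0.19 without serum. Around Car12, which itself differed by -0.18, the values ran from -0.17 to 0.71, the highest being Aph1c, also a gamma-secretase subunit gene, at 7.41 in serum and 8.12 without it. Beside Car8, the transcription factor gene Tox stood at 8.18 in serum, 8.59 without it and 7.68 after retinoic acid, a difference of -0.90 on adding retinoic acid, while Rab2a on the other side differed by 0.04. These neighbours were looked up after the members' values were seen.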
